A study of Salvia miltiorrhiza with 5 samples.

Results

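The enzymes of the mevalonate (MVA) pathway were followed in hairy roots of *Salvia miltiorrhiza*, the medicinal plant danshen, through 8 unigenes, that is, transcripts assembled *de novo* from the reads. They were taken by name from the study's list of pathway unigenes, out of 55588 unigenes in all: *AACT1* SmiContig13417, *HMGS* SmiContig18784, *HMGR2* SmiContig32425, *HMGR2* c23185_Sye-12h_g2_i3, *HMGR2* c25126_Sye-1h_g2_i1, *MK* SmiContig5870, *PMK* SmiContig2894 and *MDC* SmiContig28339. These 8 unigenes stand for 6 genes, since 3 of them carry the name *HMGR2*.

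The MVA pathway runs in the cytosol and at the endoplasmic reticulum and makes isopentenyl diphosphate, the building block of isoprenoids, from acetyl-CoA. A separate route in the plastid, the methylerythritol phosphate (MEP) pathway, makes the same building block from pyruvate and glyceraldehyde 3-phosphate. In this plant both routes are studied as sources for the tanshinones, diterpenoid quinones of the root, and 3-hydroxy-3-methylglutaryl-CoA reductase (HMGR) is widely regarded as the rate-limiting step of the cytosolic route.

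Hairy roots, obtained with an *Agrobacterium* strain carrying a root-inducing plasmid, had been grown for 40 days in shake flasks. The Control library came from untreated roots at 0 h. The MeJA-1h and MeJA-6h libraries came from roots given 0.1 mM methyl jasmonate, a plant wound and defence hormone, for 1 h and 6 h, and the YE-1h and YE-12h libraries from roots given yeast extract, a crude microbial elicitor, for 1 h and 12 h. Each of the 5 conditions had 1 library, made by mixing 3 replicate samples, and no solvent control for MeJA and no untreated culture of a matched later time is among them. The libraries held 13395770 to 20358510 counted reads, and the 8 unigenes took 0.180% of them in Control, 0.606% and 0.515% after 1 h and 6 h of MeJA, and 0.533% and 0.387% after 1 h and 12 h of YE.

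Levels below are RPKM (reads per kilobase of unigene and per unit of mapped reads, as the authors computed it). Such levels can be set side by side between genes, except where near-identical unigenes share reads. A unigene is said to have risen or fallen where its RPKM ratio was over 2 (or under 0.5) and the adjusted p of a test on the reads of the 2 libraries (edgeR's binomTest, Benjamini-Hochberg over all unigenes with reads) was under 0.01. That test compares 2 libraries and not 2 conditions, because there were no replicates, and every 95% interval below is a Clopper-Pearson interval that covers counting error only. The deposited counts are whole numbers but appear to be estimates cut to their whole part, since 179 values with a count of 0 have an RPKM above 0, so the intervals treat estimates as reads and are approximate, above all at a few reads. In RNA from whole roots, fewer cells of a type and less RNA per cell cannot be told apart.

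All 8 unigenes had their lowest level in Control. The first enzymes of the route and the last ones differed in which elicited library was highest. *HMGS* and all 3 *HMGR2* unigenes peaked at MeJA-1h, *MK*, *PMK* and *MDC* at YE-1h, and *AACT1* at MeJA-6h. With TMM scaling (an alternative to the read totals), however, *MDC* was higher at MeJA-1h than at YE-1h. None of the 8 differed by over 2-fold between MeJA-1h and YE-1h, so this order rests on small differences between single libraries. Within each library *AACT1* was the highest of the 8 and *PMK* the lowest. *AACT1* was 40.5-fold above *PMK* SmiContig2894 in Control and 109.5-fold above it at MeJA-6h. Further unigenes of the study's list also carry the name *PMK* and are not counted in these ratios, which therefore describe single unigenes and not the enzymes.

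**Figure D1:**
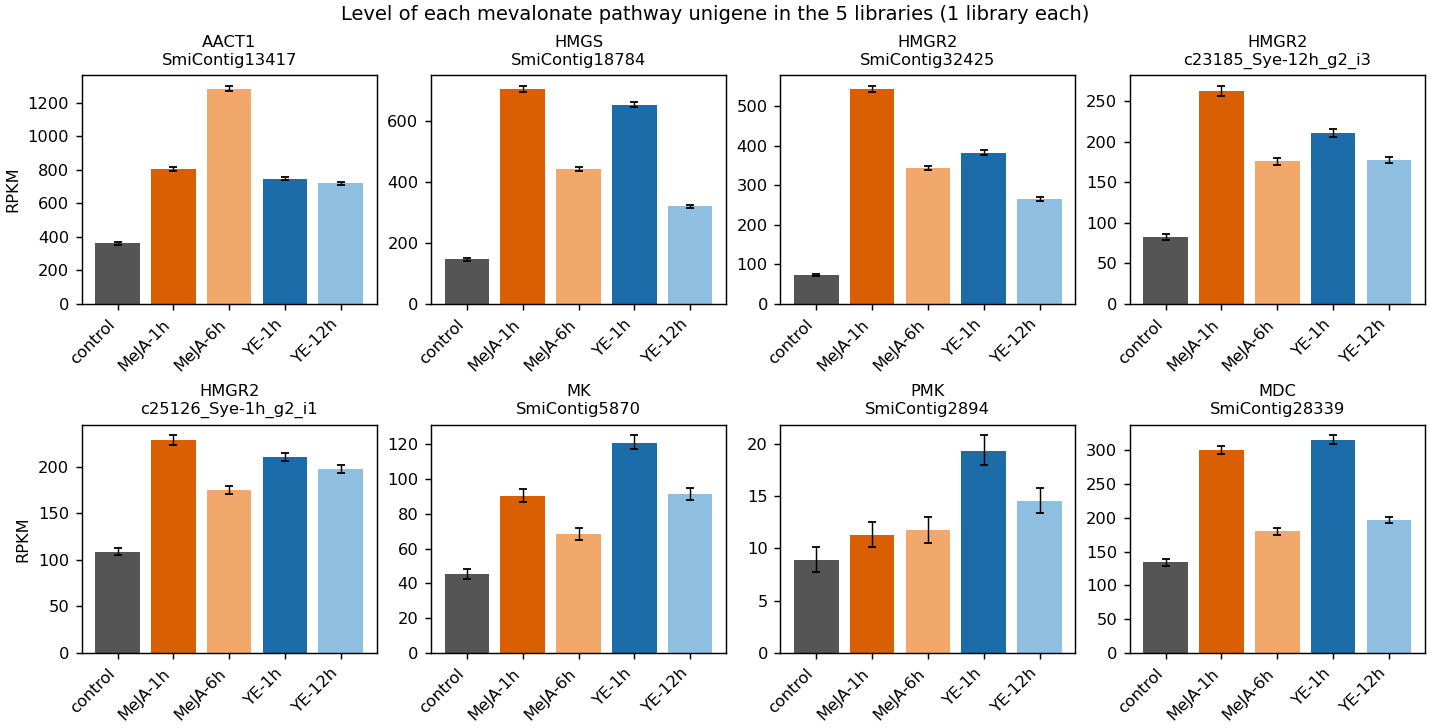
RPKM (linear axis from 0, its range set for each panel) of the 8 unigenes in the 5 libraries; a bar is 1 library and its whisker the 95% Poisson interval of the reads, which is counting error only. The dark grey Control bar is the shortest in every panel, *AACT1* is tallest at MeJA-6h with 1284 RPKM, and *MK*, *PMK* and *MDC* are tallest at YE-1h, *MDC* only on the RPKM scale and not with TMM scaling.

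AACT (acetyl-CoA C-acetyltransferase) opens the route by joining acetyl-CoA units to acetoacetyl-CoA. *AACT1* stood at 360 RPKM in Control, 804 and 1284 after 1 h and 6 h of MeJA, and 747 and 719 after 1 h and 12 h of YE. Its level was thus highest in the later MeJA library and nearly equal in both YE libraries. Against Control it rose 2.23-fold at MeJA-1h (log2 1.16), 3.56-fold at MeJA-6h (log2 1.83, interval 1.80 to 1.87) and 2.07-fold at YE-1h (log2 1.05, interval 1.01 to 1.09). At YE-12h it was 1.996-fold higher, just under the 2-fold limit, although its read test passed, so this value was not called.

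HMGS (3-hydroxy-3-methylglutaryl-CoA synthase) adds a further acetyl-CoA unit to give HMG-CoA. *HMGS* stood at 146 RPKM in Control, 705 and 444 after 1 h and 6 h of MeJA, and 654 and 320 after 1 h and 12 h of YE. Both 1 h libraries were therefore far above Control and the later libraries lay between. In Control *HMGS* had 40.4% of the level of *AACT1*, and at MeJA-1h and YE-1h it reached 87.8% and 87.6% of it, before standing at 34.6% at MeJA-6h and 44.5% at YE-12h.

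HMGR reduces HMG-CoA to mevalonate. *HMGR2* SmiContig32425 stood at 73.6 RPKM in Control, 543 and 343 after 1 h and 6 h of MeJA, and 382 and 265 after 1 h and 12 h of YE. It was the lowest of the 3 *HMGR2* unigenes in Control and the highest of them in all 4 elicited libraries. Its rises of 7.38-fold and 4.65-fold after 1 h and 6 h of MeJA, and of 5.19-fold and 3.60-fold after 1 h and 12 h of YE, were the largest among the 8 unigenes in each of the 4 comparisons. Set against the 19830 unigenes with at least 100 reads in every library, 122 and 148 of them had a larger rise than this unigene in the MeJA libraries and 137 and 108 in the YE libraries, the 1 h library first.

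*HMGR2* c23185_Sye-12h_g2_i3 stood at 82.5 RPKM in Control, 263 and 176 after 1 h and 6 h of MeJA, and 210 and 178 after 1 h and 12 h of YE. *HMGR2* c25126_Sye-1h_g2_i1 stood at 108 RPKM in Control, 228 and 175 after 1 h and 6 h of MeJA, and 210 and 197 after 1 h and 12 h of YE. The order of the libraries was alike in the 3 unigenes apart from MeJA-6h, but the span was not: c25126_Sye-1h_g2_i1 rose 2.10-fold at MeJA-1h and was not called in the other 3 comparisons with Control (1.61-fold at MeJA-6h, and 1.94-fold and 1.82-fold in the earlier and later YE library). The ratio of c25126_Sye-1h_g2_i1 to SmiContig32425 went from 1.47 in Control to 0.420 at MeJA-1h.

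Summed over the 3 unigenes, *HMGR2* came to 265 RPKM in Control, 1034 and 693 after 1 h and 6 h of MeJA, and 803 and 640 after 1 h and 12 h of YE. SmiContig32425 made up 27.8% of this sum in Control, 52.5% and 49.4% after 1 h and 6 h of MeJA, and 47.6% and 41.4% after 1 h and 12 h of YE. The elicited libraries thus held a larger share of SmiContig32425 than Control did. How many reads near-identical *HMGR* unigenes shared was not resolved by the deposited counts, so the split between them is uncertain.

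The HMGR unigene list also holds *HMGR3* SmiContig24924, at 116 RPKM in Control, 241 and 179 after 1 h and 6 h of MeJA, and 222 and 206 after 1 h and 12 h of YE. These values followed *HMGR2* c25126_Sye-1h_g2_i1 closely: the ratio of c25126_Sye-1h_g2_i1 to *HMGR3* was 0.938 in Control, 0.946 and 0.977 after 1 h and 6 h of MeJA, and 0.947 and 0.956 after 1 h and 12 h of YE. Whether c25126_Sye-1h_g2_i1 and *HMGR3* share reads or stem from the same transcript was not tested. In profile over the 5 libraries, *HMGR3* was the nearest of 19829 compared unigenes to c25126_Sye-1h_g2_i1, while SmiContig32425, of the same name, had rank 16245. Counted from SmiContig32425, the same distance gave c25126_Sye-1h_g2_i1 rank 182. The distance takes in the size of the changes as well as the order of the libraries.

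Primer sequences for the study's qRT-PCR bear on the first part of the route, and are given to identify the transcripts it amplified. The study lists *AACT1*, *HMGS* and *HMGR2* among the genes it measured this way, each value a mean of biological replicates. The qRT-PCR values were not analysed here, and the primer name does not say which *HMGR* unigene it targets. All are written 5′ to 3′ in lower case.
*AACT1* forward: agtctgtgcctctggaatgaaagc
*AACT1* reverse: acatcccagagtccgtccttcag
*HMGS* forward: gatgagcatgacagcggttacttc
*HMGS* reverse: ggatttgctcttgtcgagtacggt
*HMGR* forward: tcgttttcaataagtcgagtaga
*HMGR* reverse: attctgaaggaagtccaaaacat

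The *HMGR* primers have 23 bases and a GC content of 34.8% each, against 50.0% for both *HMGS* primers and 50.0% and 56.5% for the *AACT1* pair.

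MK (mevalonate kinase) adds the first phosphate to mevalonate. *MK* stood at 45.1 RPKM in Control, 90.6 and 68.5 after 1 h and 6 h of MeJA, and 121 and 91.3 after 1 h and 12 h of YE. It rose 2.68-fold at YE-1h (log2 1.42, interval 1.32 to 1.53), while its MeJA-1h (2.01-fold) and YE-12h (2.02-fold) calls lay so near the limit that their intervals, 0.89 to 1.12 and 0.91 to 1.13 on the log2 scale, take in values under 2-fold.

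PMK (phosphomevalonate kinase) makes mevalonate diphosphate. *PMK* SmiContig2894 stood at 8.89 RPKM in Control from 231 reads, 11.3 and 11.7 after 1 h and 6 h of MeJA from 353 and 359 reads, and 19.3 and 14.5 after 1 h and 12 h of YE from 715 and 573 reads. Both YE libraries were above both MeJA libraries. *PMK* rose at YE-1h alone among the comparisons with Control, by 2.18-fold (log2 1.12, interval 0.91 to 1.34). At MeJA-1h its log2 change was 0.35 (interval 0.11 to 0.59, adjusted p = 0.012), and it was the one value of these 32 whose read test missed 0.01.

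MDC (mevalonate diphosphate decarboxylase) closes the route and releases isopentenyl diphosphate. *MDC* stood at 134 RPKM in Control, 301 and 180 after 1 h and 6 h of MeJA, and 316 and 196 after 1 h and 12 h of YE. Both 1 h libraries were high and both later libraries lay nearer to Control. After 1 h *MDC* rose 2.24-fold with MeJA (log2 1.17, interval 1.11 to 1.23) and 2.36-fold with YE (log2 1.24, interval 1.18 to 1.30), and was 1.34-fold and 1.46-fold above Control at MeJA-6h and YE-12h, neither called.

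The order of the libraries was resolved by the counts except in 3 neighbouring pairs: MeJA-6h and YE-12h for *HMGR2* c23185_Sye-12h_g2_i3, MeJA-1h and YE-12h for *MK*, and MeJA-1h and MeJA-6h for *PMK* differed by no more than counting error. For *MDC* the order of YE-1h and MeJA-1h lay beyond counting error on the RPKM scale but turned with TMM scaling, so it is not settled. How much replicate cultures would differ is not known from these libraries.

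Compared with Control, 7 of the 8 unigenes rose at MeJA-1h, where 5.78% of the 55565 unigenes tested did. At MeJA-6h 4 of the 8 rose (*AACT1*, *HMGS* and 2 *HMGR2* unigenes), with 5.15% of all unigenes rising. At YE-1h 7 of the 8 rose, *HMGR2* c25126_Sye-1h_g2_i1 being the exception at 1.94-fold, with 5.89% of all. At YE-12h 4 of the 8 rose (*HMGS*, 2 *HMGR2* unigenes and *MK*), with 2.83% of all. None of the 8 fell in these comparisons, which share 1 Control library and so are not independent of each other. The largest adjusted p among the values called against Control was 5.44e-26, that of *PMK* at YE-1h.

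**Figure D2:**
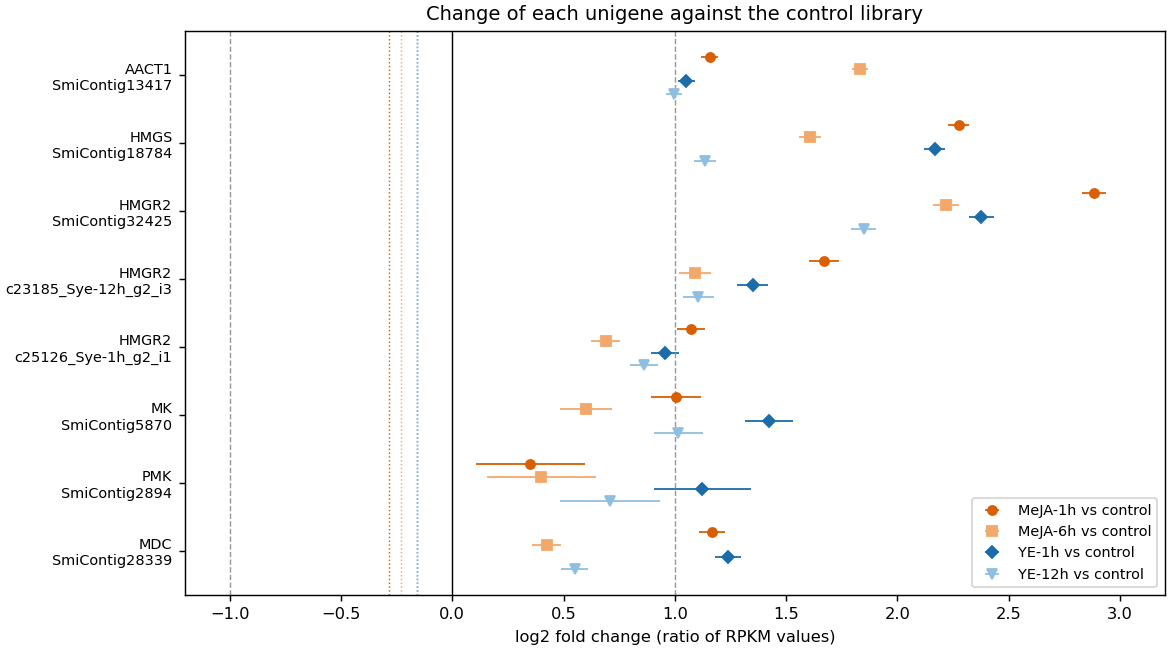
Log2 fold change of RPKM against Control for the 8 unigenes (rows) in the 4 elicited libraries (colours and symbols), with 95% Clopper-Pearson intervals of the reads; dashed lines mark 2-fold and dotted lines the median of all unigenes with over 30 reads in each comparison. All 32 points lie right of 0, and *HMGR2* SmiContig32425 at MeJA-1h, with a log2 change of 2.88, lies farthest right.

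Against Control the 8 unigenes had a median log2 change of 1.16 and 0.89 after 1 h and 6 h of MeJA, and of 1.29 and 1.01 after 1 h and 12 h of YE, beside medians in the same order of -0.28, -0.23, -0.16 and -0.16 over all unigenes with over 30 reads. Since the whole table was shifted below 0, the 8 unigenes stood 1.44, 1.12, 1.45 and 1.17 above that middle, and scaling by TMM factors, which takes up this shift, kept all 8 above Control in all 4 comparisons. TMM also brought *AACT1* at YE-12h (log2 1.16) and *HMGR2* c25126_Sye-1h_g2_i1 at YE-1h (log2 1.10) and at 12 h of YE (log2 1.02) past the 2-fold limit.

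Where a spread between cultures was assumed, fewer values passed. In edgeR's exact test at an assumed coefficient of variation of 0.2, the values that still passed were those of *HMGS* in every elicited library but YE-12h, of *HMGR2* SmiContig32425 in all 4, of *HMGR2* c23185_Sye-12h_g2_i3 at MeJA-1h and of *AACT1* at MeJA-6h. No value of *MK*, *PMK* or *MDC* passed there, and with 0.4 none of the 8 unigenes passed in any comparison (the smallest adjusted p was 0.119, that of *HMGR2* SmiContig32425 at MeJA-1h).

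The later libraries were next set against the 1 h library of the same elicitor. Between MeJA-1h and MeJA-6h none of the 8 unigenes changed by over 2-fold, where 7.91% of all unigenes did in either direction. *AACT1* was 1.60-fold higher at 6 h (log2 0.68, interval 0.65 to 0.70). *HMGS*, the 3 *HMGR2* unigenes, *MK* and *MDC* were lower, from a log2 difference of -0.38 for *HMGR2* c25126_Sye-1h_g2_i1 to -0.74 for *MDC*, each beyond counting error. *PMK* differed by 0.05 (interval -0.17 to 0.27), which was not detectable at this depth. *AACT1* was thus the one of the 8 that was higher at 6 h than at 1 h beyond counting error.

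Between YE-1h and YE-12h all 8 unigenes were lower at the later time, beyond counting error, and 1 was called, with 10.9% of all unigenes called in either direction. That one was *HMGS*, which fell 2.04-fold (log2 -1.03), so close to the limit that its interval nearly reaches it. *MDC* followed with -0.69 and *HMGR2* SmiContig32425 with -0.53. *HMGR2* c25126_Sye-1h_g2_i1 at -0.09 and *AACT1* at -0.05 (interval -0.08 to -0.03) were close to level. The later times differ between the elicitors, 6 h and 12 h, so the 2 time courses were not compared with each other.

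At 1 h the elicitors could be compared at a matched time. None of the 8 unigenes differed by over 2-fold between MeJA-1h and YE-1h, where 15.0% of all unigenes were called in either direction. None among 8 lies near that share and is not read as a trait of the pathway. On the RPKM scale the signs followed the position in the pathway, that of *MDC* turning with TMM scaling. Up to mevalonate they were positive: *AACT1* was 0.11 higher on the log2 scale after MeJA, *HMGS* 0.11, *HMGR2* SmiContig32425 0.51 (1.42-fold, interval 0.48 to 0.53), c23185_Sye-12h_g2_i3 0.32 and c25126_Sye-1h_g2_i1 0.12. After mevalonate they were negative: *MK* -0.42 (interval -0.50 to -0.34), *PMK* -0.77 (interval -0.96 to -0.59) and *MDC* -0.07. With TMM scaling *MDC* came to 0.06, while the signs of the other 7 unigenes held. In edgeR's exact test at an assumed coefficient of variation of 0.2 none of the 8 passed here. The smallest adjusted p of that test was 0.347, that of *PMK*.

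**Figure D3:**
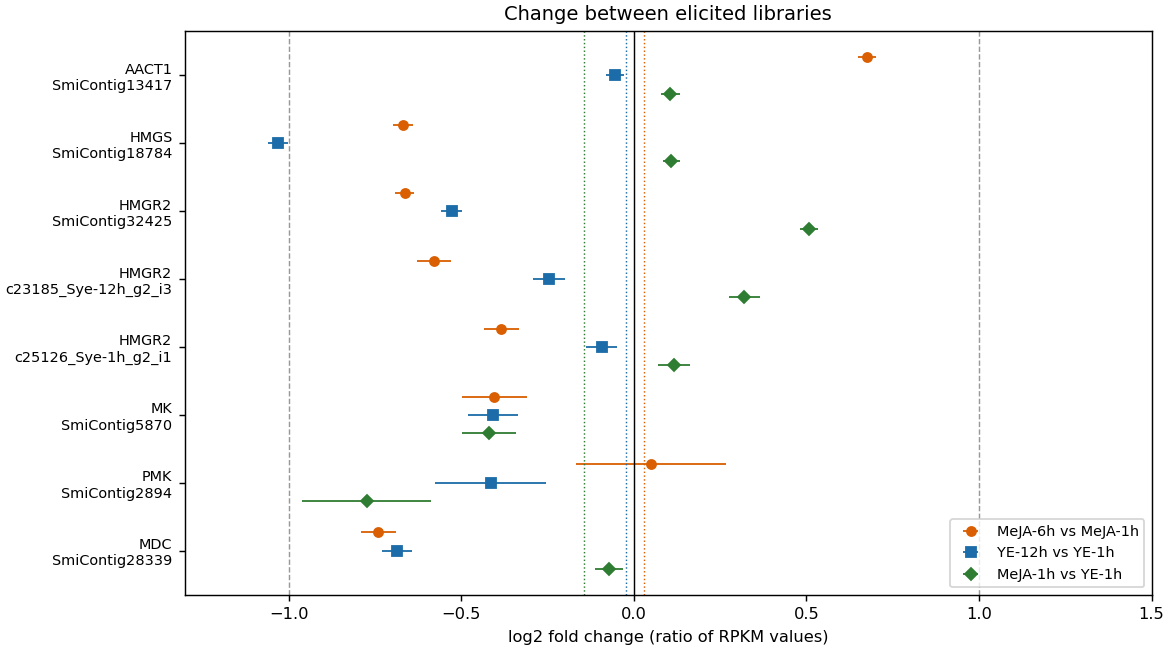
Log2 fold change of RPKM between elicited libraries for the 8 unigenes (rows): MeJA-6h against MeJA-1h (circles), YE-12h against YE-1h (squares) and MeJA-1h against YE-1h (diamonds), with 95% Clopper-Pearson intervals; dashed lines mark 2-fold and dotted lines the median of all unigenes with over 30 reads. *AACT1* has its circle at 0.68, right of 0, while *HMGS* has its square at -1.03, and the diamonds lie right of 0 for *AACT1*, *HMGS* and *HMGR2* and left of it for *MK*, *PMK* and, on the RPKM scale but not with TMM scaling, *MDC*.

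The study's list holds 13 further unigenes of the route: *HMGR3*, 9 named *PMK*, 2 named *MDC* and 1 named *MK*. Of these 13, 3 rose after 1 h and 0 after 6 h of MeJA, and 12 rose after 1 h and 0 after 12 h of YE, with median log2 changes of 0.38, 0.38, 1.36 and 0.55. The 3 at MeJA-1h were *HMGR3* (2.09-fold), *MDC* SmiContig6174 and *MK* c925_Sye-1h_g1_i1, and *HMGR3* was the exception at YE-1h (1.92-fold). The 6 long *PMK* unigenes among them, of 1890 to 3389 bp, rose 2.21-fold to 2.56-fold at YE-1h and were 1.24-fold to 1.41-fold above Control at MeJA-1h, with no call there. Their fold changes at MeJA-1h and YE-1h were near those of *PMK* SmiContig2894 (1.27 and 2.18). Their levels in Control ran from 4.52 to 8.87 RPKM, against 8.89 for SmiContig2894. How many reads these unigenes share was not resolved.

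The other 6 were short, of 314 to 726 bp, with 2 to 19 reads each in Control. They rose 3.39-fold to 14.0-fold at YE-1h and all 6 fell again from YE-1h to YE-12h. The names of *MK* c925_Sye-1h_g1_i1, *PMK* c14516_Sye-1h_g1_i1 and *PMK* c9683_Sye-1h_g1_i1 point to the assembly of the YE-1h library. An effect of that assembly on their high level at YE-1h cannot be told apart and was not tested. For 5 of them the fall was 3.08-fold to 10.9-fold, and for *MK* c925_Sye-1h_g1_i1, with 39 reads against 1, the log2 interval of the fall was -10.7 to -2.82. *MDC* SmiContig6174 stood at 2.99 RPKM in Control, 16.5 and 3.93 after 1 h and 6 h of MeJA, and 29.0 and 5.81 after 1 h and 12 h of YE, which is 5.52-fold and 9.73-fold above Control in the MeJA and YE libraries of 1 h, both called. *MK* c925_Sye-1h_g1_i1 had 2 reads in Control, 19 and 1 after 1 h and 6 h of MeJA, and 39 and 1 after 1 h and 12 h of YE, and its 14.0-fold ratio at YE-1h has a log2 interval of 1.83 to 6.87. *MDC* SmiContig28300, with 6 reads in Control and 56 at YE-1h, rose 6.58-fold, and *PMK* c9683_Sye-1h_g1_i1, with 4 and 46 reads, rose 7.19-fold. The 8 unigenes above had over 200 reads in every library and none of them showed a swing of this size between YE-1h and YE-12h.

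**Figure D4:**
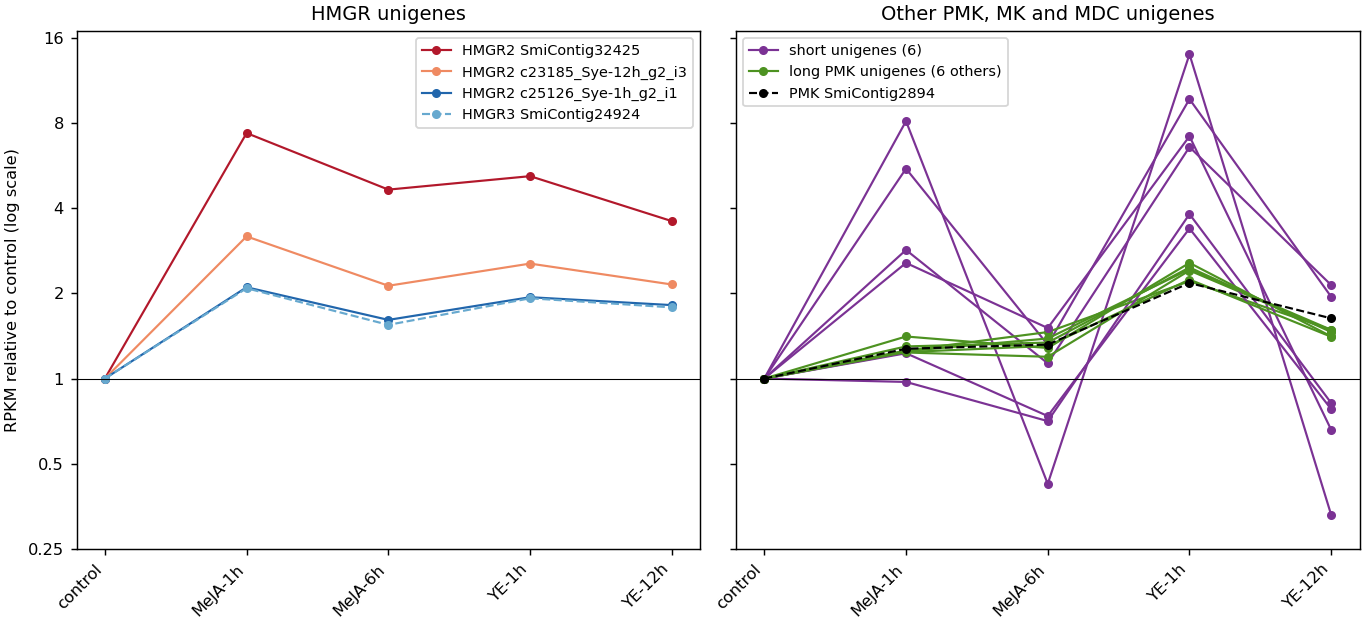
RPKM relative to Control (log axis) in the 5 libraries for the *HMGR* unigenes (left) and for the further *PMK*, *MK* and *MDC* unigenes with *PMK* SmiContig2894 (right); lines join the values of 1 unigene and are not a time course. On the left the c25126_Sye-1h_g2_i1 and *HMGR3* lines nearly coincide below SmiContig32425, and on the right the 6 short unigenes swing up to 14.0-fold at YE-1h while the long *PMK* unigenes reach at most 2.56-fold.

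The MEP pathway was taken for comparison with the most abundant unigene of each of 6 enzymes (*DXS2*, *DXR*, *CMK*, *MCS*, *HDS1* and *IDS*). Of these 6, 1 rose in each MeJA library, *HDS1* at 1 h and *CMK* at 6 h, while 6 rose after 1 h and 5, all but *MCS*, after 12 h of YE. Their median log2 changes were 0.26, 0.63, 1.25 and 1.37, beside 1.16, 0.89, 1.29 and 1.01 for the MVA unigenes. The MVA medians count *HMGR2* 3 times, and with its unigenes summed the MVA median at MeJA-6h was 1.06. From MeJA-1h to MeJA-6h the MEP median was 0.45 and the MVA median -0.49. Between MeJA-1h and YE-1h the MEP median was -1.31 and the MVA median 0.11. The latter was 0.0172 with the 3 *HMGR2* unigenes summed to 1 and 0.24 with TMM scaling. Called there were 4 of the 6 MEP unigenes (*DXS2*, *DXR*, *MCS* and *IDS*) and none of the 8 MVA unigenes, beside 15.0% of all unigenes. Over all 18 MEP unigenes of the study's list the medians against Control were -0.04, 0.41, 1.16 and 1.14, with 1, 3, 17 and 10 of them called higher and 1 called lower, at YE-1h. That one was *DXS3* SmiContig8568, named here after its values were seen, with 25.1 RPKM in Control, 25.9 and 53.8 after 1 h and 6 h of MeJA, and 18.4 after 12 h of YE, and it was 2.51-fold lower than Control at YE-1h and 2.59-fold higher at MeJA-1h than at YE-1h. The 13 further MVA unigenes of the study's list had a median of 0.38 at MeJA-1h against Control. Between MeJA-1h and YE-1h their median was -0.93, with 12 of them lower at MeJA-1h (4 called) and 1 higher. In these 1 h comparisons the contrast of the pathways thus depended on which MVA unigenes were taken. From MeJA-1h to MeJA-6h the median of the 13 was -0.43, below 0 like that of the 8. Most of the 13 carry the name *PMK*, so their medians weigh that enzyme heavily. The difference between the pathways was not tested.

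Downstream of both routes, *IPPI* SmiContig12363, the isomerase that converts isopentenyl diphosphate to dimethylallyl diphosphate, stood at 323 RPKM in Control, 791 and 590 after 1 h and 6 h of MeJA, and 611 and 495 after 1 h and 12 h of YE. *FPPS* SmiContig27663, which makes the farnesyl diphosphate used for sterols and sesquiterpenes, stood at 177, 399, 324, 406 and 353 RPKM in the same order. Both were lowest in Control and above it in all 4 elicited libraries, as the MVA unigenes were. *GGPPS1* SmiContig27610, which makes the precursor of diterpenoids, stood at 56.6, 58.8, 56.8, 276 and 187 RPKM, near Control in both MeJA libraries and high in both YE libraries.

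Likeness of profile was measured as the Euclidean distance between log2 RPKM values, each centred on its mean over the 5 libraries, among unigenes with at least 100 reads in every library. By this measure *HMGS* was the third nearest of 19829 unigenes to *HMGR2* SmiContig32425, at a distance of 0.61, and the nearest that the study's tables name. The nearest named unigene to *HMGS* was a WRKY transcription factor, c21329_Sye-1h_g1_i3, at a distance of 0.25 (rank 2), with 7.53 RPKM in Control, 42.0 and 21.1 after 1 h and 6 h of MeJA, and 36.0 and 16.2 after 1 h and 12 h of YE. The same WRKY unigene was also the nearest named one outside the pathway to *HMGR2* SmiContig32425 (0.68, rank 7).

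The other 7 unigenes ranked between 359 and 4986 by distance from *AACT1*, and between 181 and 18784 by distance from *PMK*. Such ranks depend on the starting unigene: *HMGR2* SmiContig32425 had rank 18784 from *PMK*, but *PMK* had rank 836 from SmiContig32425. The nearest named unigene to *AACT1* was another WRKY transcription factor, SmiContig6870 (0.44, rank 9). For *HMGR2* c23185_Sye-12h_g2_i3 the nearest named unigene was *FPPS* (0.37, rank 4). For *PMK* it was *PMK* SmiContig30554 (0.20, rank 2), for *MK* a heat shock transcription factor, SmiContig31085 (0.34, rank 10), and for *MDC* the WRKY unigene SmiContig31495 (0.21, rank 3). These distances rest on 5 libraries, describe them alone, and were taken over 240 named unigenes that passed the read limit. The study had listed its transcription factors because they rose over 2-fold with MeJA or YE in these same libraries. That choice of names favours an induced transcription factor as the nearest named unigene, so no link to the pathway is drawn from it.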

How the data were processed

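Paired reads had been filtered by the authors with the NGS QC toolkit (version 2.3) and assembled with Trinity (k-mer 25). The deposited tables give whole-number read counts and RPKM values per unigene as the authors made them. The counts look like estimated counts whose decimals were dropped, which was inferred from the values. The counting program is not given in the sources used here. The labels' extraction text speaks of retinas, although every sample is labelled as hairy roots, and the tissue was not checked against markers. Groups came from the labels. The 8 unigenes, the lists and the tests were chosen with earlier results of these data known. With 1 library per condition, reads were compared with edgeR 4.0.16 binomTest (R 4.3.3), using library totals of 13395770 to 20358510 reads as scale, leaving out unigenes that had no reads in the 2 libraries compared. RPKM ratios gave the fold changes, with no pseudocount. Differentially expressed unigenes had an adjusted p under 0.01 and over 2-fold change. Named beyond the 8 were *HMGR3*, further pathway unigenes over 4-fold, the most abundant unigene of each MEP, *IPPI*, *FPPS* and *GGPPS1* gene, and the nearest profiles. Alternatives were TMM and DESeq2 1.42.0 size factors, a minimum of 30 reads, an FDR of 0.05, a pseudocount of 1 RPKM, summed *HMGR2* unigenes, and edgeR's exact test with assumed coefficients of variation of 0.2 and 0.4. No unigene sequence, genome position or protein was used here.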

Additional observations from a re-analysis of the deposited data

Results flagged for a closer look

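For *AACT1* SmiContig13417 the later library was higher than the 1 h library under MeJA, with a log2 difference of 0.676 at 6 h, and close to level under YE, with -0.0544 at 12 h. The signs of these values are opposite, but the later times differ, each library stands alone, and the difference between the elicitors was not tested.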

How the results depend on the processing

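Of 392 values of single unigenes under an alternative, 346 kept their direction and their side of the threshold, 38 lost their call, 6 gained one and 2 turned. Those that turned were *MDC* between MeJA-1h and YE-1h, at 0.0596 with TMM scaling and 0.0587 with DESeq2 size factors. The 346 include values that had no call to lose. With an assumed coefficient of variation of 0.4, 23 values lost their call, and the 33 that stayed the same had not been called before. The threshold of 0.05 and the minimum of 30 reads, with 56 unchanged values each, could hardly move these well-read unigenes. The total is therefore no measure of how firm the calls are. The median log2 change of the 8 unigenes at MeJA-1h, MeJA-6h, YE-1h and YE-12h against Control was 1.44, 1.13, 1.44 and 1.17 with TMM, and 1.44, 1.13, 1.45 and 1.17 with DESeq2; between MeJA-1h and YE-1h it was 0.24 with either. With the *HMGR2* unigenes summed it was 1.06 at MeJA-6h and 0.0172 between MeJA-1h and YE-1h. With an assumed coefficient of variation of 0.2, 3 unigenes were called at MeJA-1h, 2 at YE-1h, 1 at YE-12h and 0 between YE-12h and YE-1h. With 0.4, 0 were called in those comparisons and at MeJA-6h. With a pseudocount of 1 RPKM, *MK* at MeJA-1h lost its call (log2 0.99). A threshold of 0.05 and a minimum of 30 reads changed no call of the 8.

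Over all unigenes, the share of calls that were higher than Control was 42.0%, 36.2%, 54.9% and 42.9% in the same order of libraries and became 66.4%, 56.8%, 68.0% and 61.8% with TMM. The counts that rose, 3213, 2861, 3270 and 1571, became 1623, 1305, 1422 and 459 with an assumed coefficient of variation of 0.2 and 167, 119, 93 and 26 with 0.4. Each condition had 1 library, so none was left out and no paired analysis was possible. Replicate error is unknown.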

Other observations

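A short unigene outside the MVA route had a profile like that of the 6 short MVA unigenes. *HDS1* SmiContig34251, of 394 bp and named after an enzyme of the MEP pathway, stood at 2.28 RPKM in Control, 5.38 and 2.98 after 1 h and 6 h of MeJA, and 17.1 and 3.93 after 1 h and 12 h of YE. The abundant *HDS1* SmiContig8237 stood at 49.3 RPKM in Control, 116 after 1 h of YE and 119 after 12 h of YE, with no such difference between YE-1h and YE-12h. *HDS1* SmiContig34251 was chosen after its values were seen.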
